A study of Mus musculus with 9 samples.

Results

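The genes described here are 51 ligands, receptors, Smads, antagonists and response genes of BMP and TGF-beta signaling, picked by symbol from the 18272 genes of a tibia RNA-seq table. All 51 had a row in it, and 48 passed the filter on low counts that 13960 of the 18272 genes passed. Grouped by role, they were 9 BMP ligands, 6 TGF-beta and activin ligands, 11 receptors, 8 Smads, 5 Id and feedback genes, 8 extracellular antagonists and modulators, and 4 latent TGF-beta binding proteins.

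BMPs and TGF-betas are secreted dimers that bind pairs of type I and type II receptor kinases. Activated BMP receptors phosphorylate Smad1, Smad5 and Smad9, whereas TGF-beta and activin receptors phosphorylate Smad2 and Smad3, and both sets of Smads enter the nucleus with Smad4. Smad6 and Smad7 are inhibitory Smads induced by the signal itself, and the Id genes are classic BMP targets. In bone, BMPs drive osteoblast differentiation, and TGF-beta stored in the matrix is released during resorption. In skeletal muscle, myostatin and activins signal through Smad2 and Smad3 to restrain growth.

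Tibias came from female C57BL/6J mice, bought at 10 to 11 weeks of age, with 3 mice in each of 3 groups and 1 library per mouse. NGT mice (normal glucose tolerance) received vehicle in place of streptozotocin. T1D mice received a single injection of streptozotocin, a toxin of insulin-producing beta cells, and then saline. Lira mice received the same streptozotocin injection and then liraglutide, a glucagon-like peptide receptor agonist, at 0.6 mg/kg/day. The labels give 8 weeks of liraglutide for Lira mice 1 and 2 and 9 weeks for Lira mouse 3. Diabetes was therefore chemically induced in both T1D and Lira mice, and the RNA was from whole tibia rather than from sorted cells.

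Library totals were 13086373 to 16528394 counts. The bones were described as cleaned of muscle, yet 10 skeletal muscle markers took 13.2 to 20.4% of the counts in NGT, 10.3 to 20.6% in T1D and 13.3 to 18.3% in Lira mice. The 6 osteoblast markers summed to 0.00979 to 0.104% of the counts in NGT, 0.0383 to 0.459% in T1D and 0.0210 to 0.0856% in Lira mice. The osteoblast genes Bglap and Sp7 were at 0 in NGT mouse 2, where Ibsp, a bone matrix gene, was at 0.155 CPM against 32.8 and 54.5 CPM in the other NGT mice, and Ibsp was at 3.97 CPM in Lira mouse 2. T1D mouse 1 had the highest osteoblast share and the lowest muscle share. Since these libraries stood apart by their tissue markers, values are also given below without NGT mouse 2 and Lira mouse 2, and without the 3 libraries of lowest muscle marker share (NGT mouse 1, T1D mouse 1 and Lira mouse 3). In bulk tissue, fewer cells of a type and less RNA per cell cannot be told apart.

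Promoter sequences from RefSeq (GRCm38.p6) were matched for 33 of the 51 genes. Smad7 was not among the 33. The sequences of Smad3, Smad6, Id2 and Id3 are shown as those of a signal transducer, an inhibitory Smad and 2 response genes whose values in T1D and NGT mice are described below. Each is the 250 bases before the gene's start, read 5′ to 3′ on the gene's strand. Smad3 is at chr9:63757995-63758244 (minus strand), Smad6 at chr9:64022060-64022309 (minus strand), Id2 at chr12:25096093-25096342 (minus strand) and Id3 at chr4:136143572-136143821 (plus strand). Capitals mark GGCGCC, a GC-rich motif bound by BMP Smads, and CAGAC or its reverse complement GTCTG, the Smad-binding element.
Smad3: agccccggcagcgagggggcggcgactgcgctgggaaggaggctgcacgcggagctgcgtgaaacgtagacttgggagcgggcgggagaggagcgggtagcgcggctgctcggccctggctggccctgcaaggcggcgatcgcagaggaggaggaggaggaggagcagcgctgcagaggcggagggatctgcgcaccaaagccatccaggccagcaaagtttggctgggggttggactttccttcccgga
Smad6: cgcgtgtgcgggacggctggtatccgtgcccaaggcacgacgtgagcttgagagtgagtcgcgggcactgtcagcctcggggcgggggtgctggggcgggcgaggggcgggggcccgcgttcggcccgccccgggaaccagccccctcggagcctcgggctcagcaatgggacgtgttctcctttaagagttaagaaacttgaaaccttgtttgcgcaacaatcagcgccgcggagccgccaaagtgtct
Id2: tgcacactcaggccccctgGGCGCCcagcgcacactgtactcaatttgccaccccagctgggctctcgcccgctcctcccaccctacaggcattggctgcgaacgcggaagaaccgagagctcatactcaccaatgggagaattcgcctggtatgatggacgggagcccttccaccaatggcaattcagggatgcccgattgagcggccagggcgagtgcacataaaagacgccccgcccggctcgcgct
Id3: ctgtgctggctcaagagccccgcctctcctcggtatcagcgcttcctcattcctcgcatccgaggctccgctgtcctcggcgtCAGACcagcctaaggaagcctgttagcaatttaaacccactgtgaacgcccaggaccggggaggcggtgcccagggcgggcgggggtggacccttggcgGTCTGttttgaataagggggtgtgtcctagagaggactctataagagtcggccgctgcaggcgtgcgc
The Id2 window held 1 GGCGCC and no CAGAC, the Id3 window held 2 CAGAC on either strand and no GGCGCC, and the Smad3 and Smad6 windows held neither. The 33 genes had 41 windows, since 5 of them had several starts, and a gene was counted if any of its windows held the motif on either strand. GGCGCC was found for 9 of the 33 genes (27.3%) and for 10.8% of 27025 genes. CAGAC was found for 16 of 33 (48.5%) and for 45.8% of all genes. The palindromic element GTCTAGAC was found for 0 of 33 and for 0.2% of all genes. GTCTAGAC contains neither of the shorter motifs, and a match describes the sequence only.

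Levels of different genes were compared as FPKM, which is scaled for gene length, averaged over the 9 mice. The latent TGF-beta binding protein Ltbp4, which holds TGF-beta in the matrix, had the highest mean at 24.0 FPKM. It was followed by the secreted glycoprotein Fstl1 at 20.9 FPKM and the ligand Tgfb3 at 18.9 FPKM. Without T1D mouse 1, Fstl1 averaged 14.9 FPKM, below Tgfb3 at 17.6 and Bmpr1a at 18.5 FPKM, while Ltbp4 was highest at 22.6 FPKM. Among receptors, the BMP type I receptor Bmpr1a was highest at 18.4 FPKM. Smad3 and the common partner Smad4 were at 16.9 and 16.5 FPKM, while Smad2, the other TGF-beta and activin Smad, was at 2.32 FPKM. The BMP Smads Smad5, Smad1 and Smad9 were at 7.31, 4.85 and 0.218 FPKM. Bmp6 was the most abundant BMP ligand at 6.13 FPKM. Grem1, a secreted BMP antagonist, and the joint morphogens Gdf5 and Gdf6 failed the filter, with 26, 14 and 30 counts in all 9 libraries and mean levels of 0.118, 0.0478 and 0.0633 FPKM. Grem1 had 4, 0 and 3 counts in NGT, 1, 3 and 6 in T1D and 1, 0 and 8 in Lira mice. Gdf5 had 2, 1 and 3 counts in NGT, 5, 0 and 1 in T1D and 0, 1 and 1 in Lira mice. Gdf6 had 1, 1 and 3 counts in NGT, 4, 2 and 3 in T1D and 5, 5 and 6 in Lira mice. At these counts no difference between groups was tested.

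**Figure D1:**
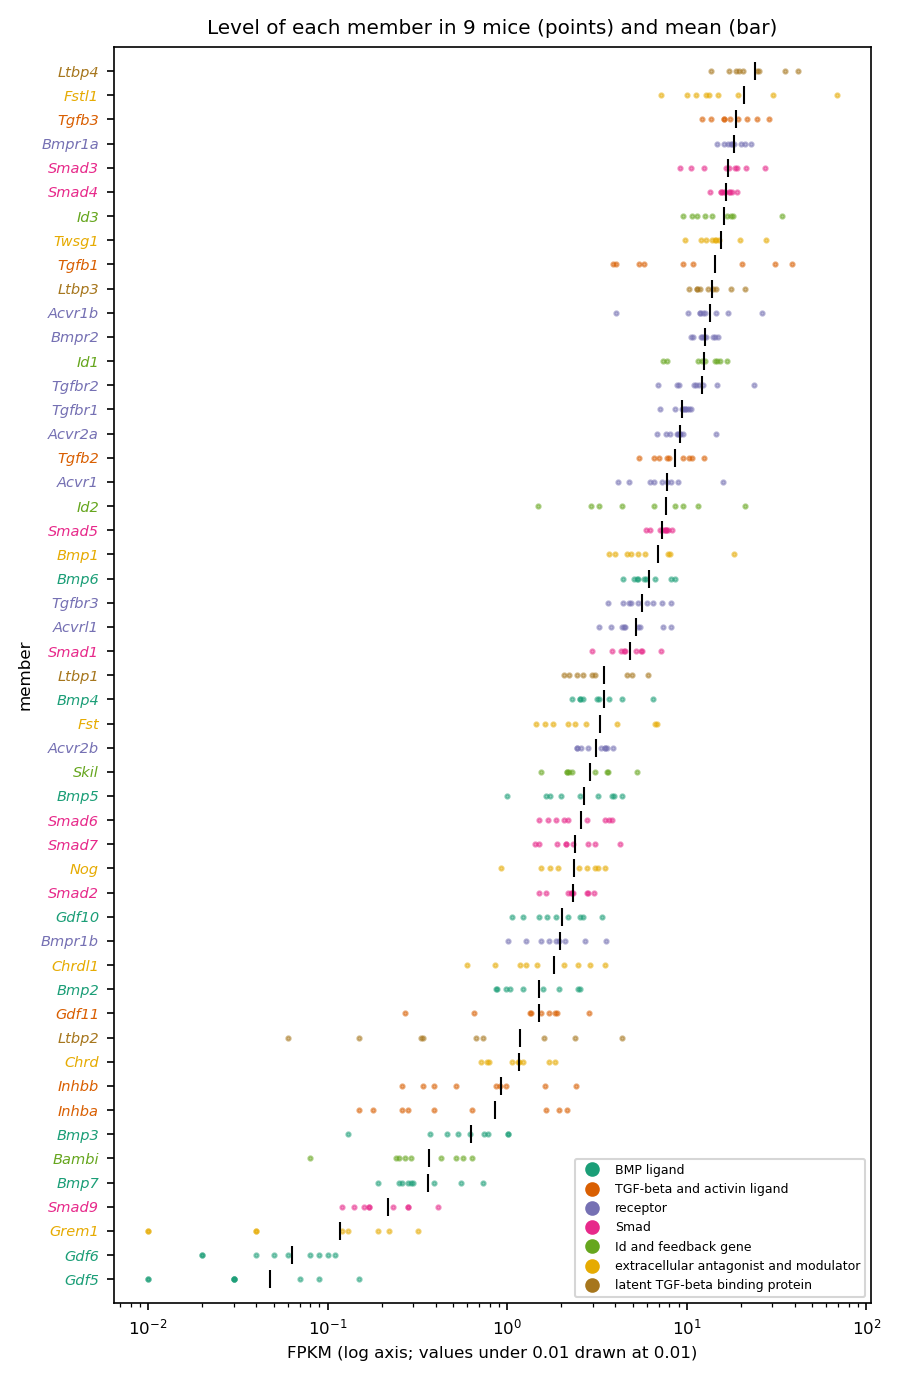
Level of each of the 51 genes in FPKM on a log axis, with a point for each of 9 mice and a bar at the mean, colored by role. Mean levels run from 0.0478 FPKM for Gdf5 to 24.0 FPKM for Ltbp4, and genes such as Tgfb1 and Ltbp2 are spread widely between mice.

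The T1D against NGT comparison asked how diabetes altered tibia expression. Smad3 was lower and Smad7 was higher in every T1D mouse than in every NGT mouse, but none of the 48 genes passed the test. With edgeR's quasi-likelihood test, 0 of 48 were called at a Benjamini-Hochberg adjusted p under 0.05 and a fold above 2 (lowest adjusted p = 0.977), against 0.0% of all tested genes. DESeq2 also called 0, but it gave no adjusted p to Smad3, Smad7, Bmp1 and Id3, so its 0 does not cover them. Without adjustment, 4 of 48 (8.33%) had p under 0.05 against 3.95% of all tested genes. Smad7, Bmp1 and Id3 were higher (background 2.36%) and Smad3 was lower (background 1.6%). The groups did not overlap for 5 of 48 (10.4%), against 8.6% of all tested genes. These were Smad3 and Bmp6, lower in T1D (background 5.08%), and Smad6, Smad7 and Inhbb, higher in T1D (background 3.52%). The median log2 fold change was 0.17 over the 48 genes and 0.02 over all tested genes, and 33 of 48 (68.8%) were above 0 against 52.1% of all tested genes. With library size in place of TMM the 33 were set against 62.0% of all tested genes. The median over the 48 genes was 0.06 without T1D mouse 2, 0.07 without T1D mouse 1 or NGT mouse 3, 0.27 without NGT mouse 1 and 0.28 without T1D mouse 3.

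Of the 8 Smads, 1 was lower and 1 higher at an unadjusted p under 0.05, against 1.6% and 2.36% of all tested genes. Smad3 (gene ID 17127), which carries TGF-beta, activin and myostatin signals, was at 80.5, 94.7 and 139 CPM in NGT mice, 59.5, 47.9 and 47.2 CPM in T1D mice and 62.5, 97.0 and 69.8 CPM in Lira mice. All T1D mice lay below all NGT and all Lira mice. Group means were 105 ± 30.3, 51.5 ± 6.93 and 76.4 ± 18.2 CPM (SD, n = 3 each). The log2 fold change in T1D against NGT was -1.02 ± 0.25 (SE; unadjusted p = 0.00305, adjusted p = 0.977), and it was -1.17 to -0.77 when each mouse was left out in turn. An exact two-sided permutation test over the mice gave 0.1, the smallest p that 3 against 3 allows.

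Smad7 (gene ID 17131), which blocks TGF-beta and BMP receptors, was at 6.98, 7.04 and 6.65 CPM in NGT mice, 12.1, 12.3 and 8.40 CPM in T1D mice and 9.92, 9.66 and 9.18 CPM in Lira mice. NGT mice were the lowest 3 of the 9, and Smad7 had the smallest spread within groups of the 48 genes (mean coefficient of variation 9.02%). Its log2 fold change in T1D against NGT was 0.67 ± 0.21 (SE; unadjusted p = 0.0111). Smad6 (gene ID 17130), the other inhibitory Smad, was at 6.60, 5.49 and 5.07 CPM in NGT, 9.02, 11.1 and 6.67 CPM in T1D and 7.07, 11.5 and 4.88 CPM in Lira mice. It was chosen for mention after its values were seen: NGT and T1D did not overlap, by a margin of 6.60 to 6.67 CPM, and the log2 fold change was 0.64 ± 0.35 (SE; unadjusted p = 0.0985). The remaining 5 Smads had log2 fold changes of -0.16 (Smad4) to 0.23 (Smad1).

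All 5 Id and feedback genes had log2 fold changes above 0, from 0.24 for Id1 to 1.35 for Id2, and 1 of them had an unadjusted p under 0.05. Of all tested genes, 52.1% were above 0 (62.0% with library size in place of TMM) and 3.95% had an unadjusted p under 0.05. Id3 (gene ID 15903), an inhibitor of basic helix-loop-helix factors, was at 13.7, 12.0 and 10.1 CPM in NGT mice, 25.6, 17.02 and 12.9 CPM in T1D mice and 10.9, 14.2 and 14.0 CPM in Lira mice. The NGT and T1D ranges overlapped at T1D mouse 3. The log2 fold change was 0.64 ± 0.27 (SE; unadjusted p = 0.0438) and 0.33 without T1D mouse 1. Id2 (gene ID 15902), of the same family and given as the largest difference among the 5, was at 9.90, 2.09 and 4.20 CPM in NGT, 21.3, 8.31 and 11.9 CPM in T1D and 6.00, 4.52 and 12.97 CPM in Lira mice. NGT mouse 1 lay above T1D mouse 2, and the log2 fold change was 1.35 ± 0.63 (SE; unadjusted p = 0.0622).

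**Figure D2:**
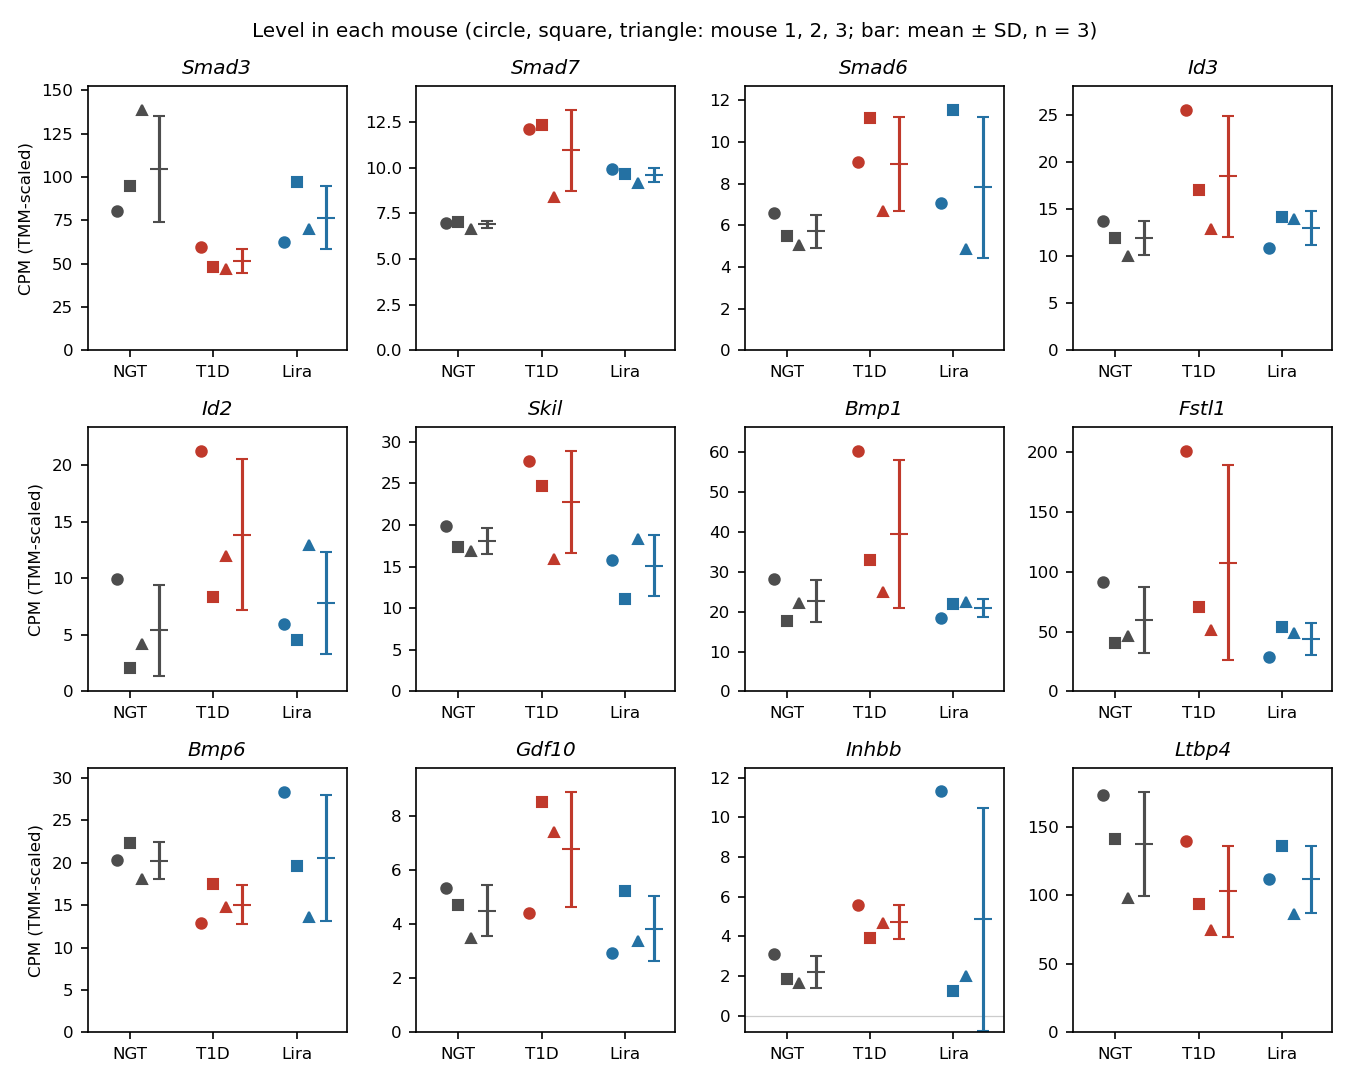
CPM of 12 genes in each of the 9 mice, by group, with the mean and SD beside the points. For Smad3 the T1D mice (47.2 to 59.5 CPM) sit below all others, and for Smad7 the NGT mice (6.65 to 7.04 CPM) do.

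Of the 7 tested extracellular antagonists and modulators, 5 had a log2 fold change above 0 and 1 an unadjusted p under 0.05. The shares of all tested genes were 52.1% (62.0% with library size in place of TMM) and 3.95%. Bmp1 (gene ID 12153), a metalloproteinase that cleaves procollagen and the BMP antagonist chordin, was at 28.1, 17.6 and 22.3 CPM in NGT mice, 60.2, 32.9 and 24.9 CPM in T1D mice and 18.3, 22.0 and 22.4 CPM in Lira mice. The T1D against NGT log2 fold change was 0.80 ± 0.32 (SE; unadjusted p = 0.0363), but 0.35 without T1D mouse 1. Fstl1 (gene ID 14314) was at 91.1, 40.8 and 46.5 CPM in NGT, 201, 70.4 and 51.5 CPM in T1D and 28.6, 53.6 and 48.5 CPM in Lira mice. T1D mouse 1 was thus the highest library for both genes. In that library the osteoblast markers took 0.459% of the counts, against at most 0.104% in the other 8, and the 6 tendon and fibroblast markers, none of them at 0 in any library, took 0.256%, against at most 0.0884%. Macrophage markers took 0.0846% there against at most 0.0109% elsewhere, osteoclast markers 0.0417% against 0.0272%, chondrocyte markers 0.0235% against 0.00785% and adipocyte markers 0.218% against 0.133%. By group, the tendon and fibroblast list ran from 0.0236 to 0.0884% in NGT, 0.0240 to 0.256% in T1D and 0.0175 to 0.0458% in Lira mice. The part of these cells in the 2 genes' values was not tested. Nog, Chrd, Chrdl1, Fst and Twsg1, which bind BMPs or activins, had log2 fold changes of -0.27 to 0.38 with unadjusted p of at least 0.502.

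Among the ligands, Bmp6 (gene ID 12161), a BMP tied to iron regulation and bone formation, was at 20.4, 22.4 and 18.1 CPM in NGT, 12.9, 17.5 and 14.7 CPM in T1D and 28.3, 19.6 and 13.6 CPM in Lira mice. T1D mice were below NGT mice without overlap, at a log2 fold change of -0.43 ± 0.27 (SE; unadjusted p = 0.143). Inhbb, the activin B subunit, was chosen after its values were seen, at 3.11, 1.86 and 1.66 CPM in NGT and 5.60, 3.93 and 4.67 CPM in T1D mice, while Lira mice were at 11.3, 1.25 and 2.01 CPM. The T1D mice were above the NGT mice, and Lira mouse 1 was above both. Tgfb3 (gene ID 21809) was at 69.5, 73.5 and 62.5 CPM in NGT, 79.2, 55.1 and 45.6 CPM in T1D and 50.8, 81.8 and 53.1 CPM in Lira mice, so the groups overlapped. Over all 13 tested ligands, log2 fold changes ran from -1.03 for Gdf11 to 1.09 for Inhbb, and none had an unadjusted p under 0.05.

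None of the 11 receptors had an unadjusted p under 0.05 in T1D against NGT, and their log2 fold changes ran from -0.37 for the BMP type II receptor Bmpr2 to 0.50 for the TGF-beta type II receptor Tgfbr2. Bmpr1a (gene ID 12166) was at 84.2, 110 and 111 CPM in NGT, 75.5, 125 and 128 CPM in T1D and 88.3, 121 and 79.3 CPM in Lira mice. Mice differed within each group by more than the group means did. Of the 4 latent TGF-beta binding proteins, 3 had a log2 fold change above 0, against 52.1% of all tested genes, and Ltbp4 had one of -0.42. Ltbp4 (gene ID 108075) was at 173, 142 and 97.8 CPM in NGT, 140, 94.0 and 75.0 CPM in T1D and 112, 136 and 86.8 CPM in Lira mice, with overlapping groups.

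**Figure D3:**
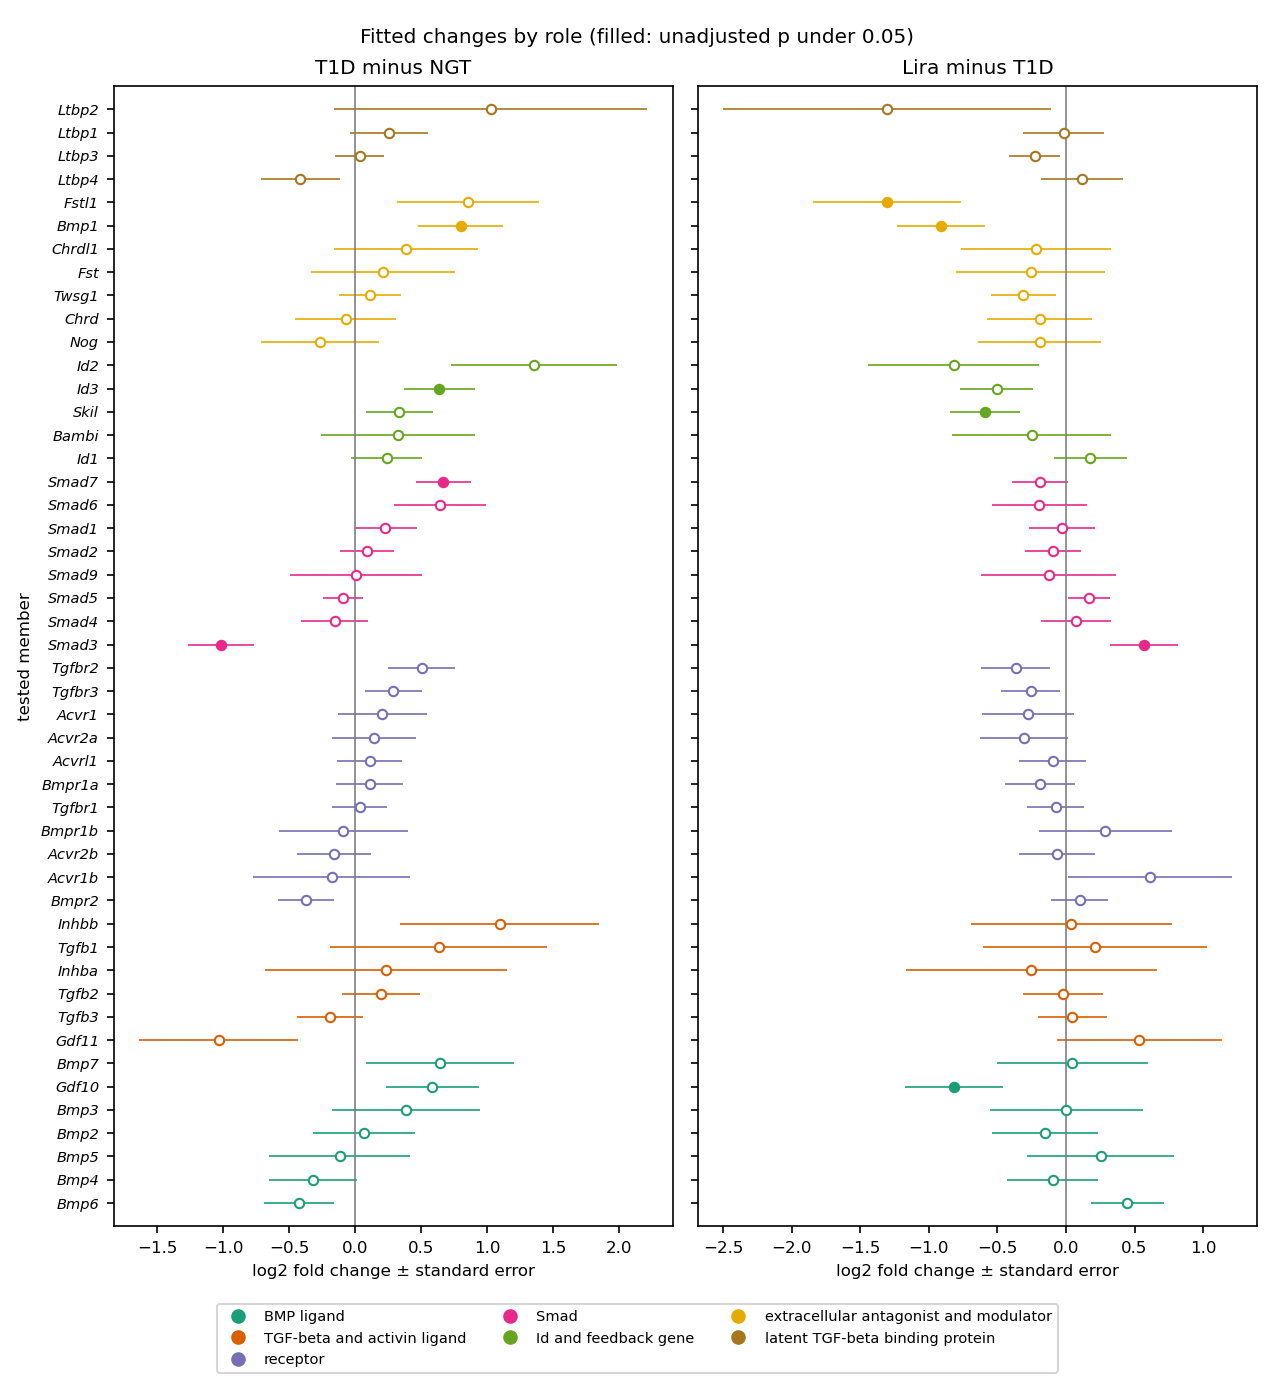
Log2 fold change with its standard error for each of the 48 tested genes in T1D against NGT (left) and Lira against T1D (right), colored by role and filled where the unadjusted p was under 0.05. 4 genes are filled on the left and 5 on the right, with Smad3 at -1.02 and 0.57.

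NGT and T1D mice of the same replicate number deviated together across all tested genes (r = 0.599, 0.641 and 0.284), so the groups were also compared within numbers. The labels do not say what a number marks, and the pairs were taken on these same values. P-values and standard errors with this pairing are therefore a description and not a separate test. With this pairing as a block, and only NGT and T1D in the fit, 0 of 48 genes were called by edgeR (lowest adjusted p = 0.232), and 14 (29.2%) had an unadjusted p under 0.05 against 14.0% of all tested genes. With the same block over all 9 libraries the count was 4 of 48, against 5.39% of all tested genes. Of the 14, 10 were higher in T1D (Id2, Tgfb1, Inhbb, Tgfbr2, Bmp1, Id3, Fstl1, Ltbp2, Smad7 and Smad6), against 8.14% of all tested genes, and 4 were lower (Smad3, Ltbp4, Bmpr2 and Bmp6), against 5.85%. The 14 were picked on these same pairs, so their paired values below are a description. Id2 had the lowest p, with paired differences of 1.03, 1.59 and 1.32 on the log2(CPM + 1) scale and a blocked log2 fold change of 1.50 ± 0.24 (SE; adjusted p = 0.232). For Smad3 the paired differences were -0.43, -0.97 and -1.54, and the blocked log2 fold change was -0.99 ± 0.23 (SE; adjusted p = 0.237). Tgfb1, the most studied TGF-beta ligand, overlapped between the groups, with paired differences of 0.54, 0.39 and 0.90. The 6 osteoclast markers, of which Dcstamp was at 0 in some libraries, also took a larger share of the counts in the T1D mouse of each pair, with 0.0153, 0.000677 and 0.00403% in NGT, 0.0417, 0.00881 and 0.0231% in T1D and 0.0108, 0.00162 and 0.0272% in Lira mice. The 6 macrophage markers, of which Vsig4 was at 0 in some libraries, took 0.0109, 0.00217 and 0.00312% in NGT, 0.0846, 0.00615 and 0.00694% in T1D and 0.00564, 0.00607 and 0.0107% in Lira mice. In all, 6 of the 16 marker lists took a larger share in the T1D mouse of every pair, the others being adipocyte, chondrocyte, T and NK cell and Schwann cell markers. The part of these cells in the paired differences was not tested.

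**Figure D4:**
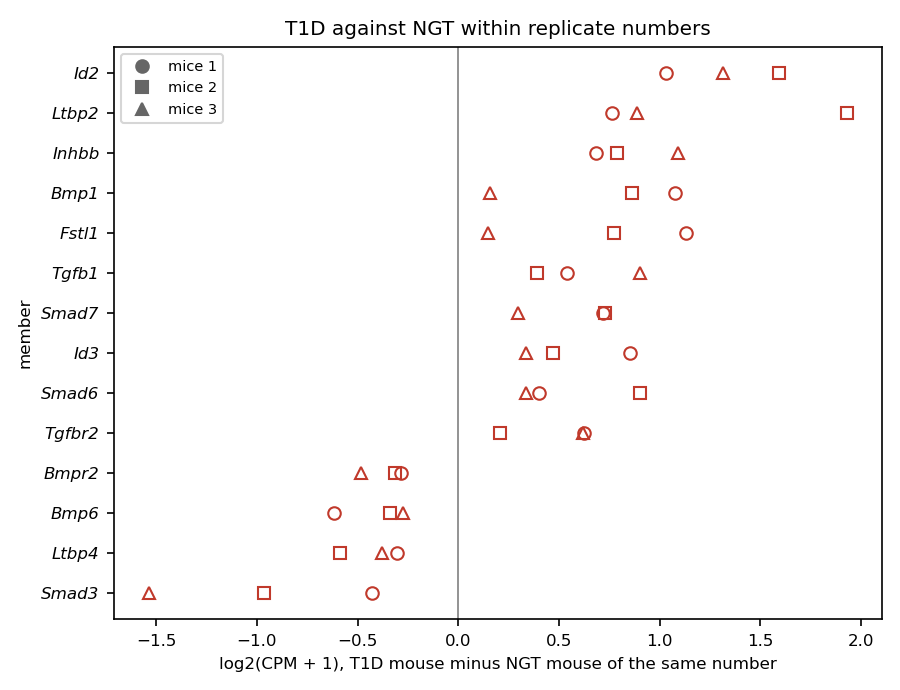
Difference in log2(CPM + 1) between the T1D and the NGT mouse of the same replicate number, for the 14 genes with an unadjusted p under 0.05 in the blocked comparison. The genes were picked on these same pairs, and the points run from -1.54 for Smad3 to 1.93 for Ltbp2.

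The Lira against T1D comparison asked what liraglutide altered in diabetic mice, and it shares the T1D mice with the comparison above. Smad3 was higher and Bmp1 lower in every Lira mouse than in every T1D mouse. Again 0 of 48 genes were called by edgeR (lowest adjusted p = 0.978), against 0.0% of all tested genes, and 0 by DESeq2. Without adjustment, 5 of 48 (10.4%) had p under 0.05 against 3.33% of all tested genes, with Smad3 higher (background 1.55%) and Bmp1, Fstl1, Gdf10 and Skil lower in Lira mice (background 1.78%). Groups did not overlap for 2 of 48, against 7.13% of all tested genes, namely Smad3, higher (background 3.74%), and Bmp1, lower (background 3.4%). The median log2 fold change was -0.11 over the 48 genes and 0.04 over all tested genes. Without T1D mouse 1 the former was -0.06, without T1D mouse 3 -0.17 and without Lira mouse 2 -0.20. Of the 48, 16 were above 0, against 55.3% of all tested genes, and 32 below, a split that became 10 and 38 when library size replaced TMM scaling, which also lowered the share of all tested genes above 0 to 43.8%.

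Smad3 had a log2 fold change of 0.57 ± 0.25 in Lira against T1D mice (SE; unadjusted p = 0.0496), and 0.36 without Lira mouse 2. Bmp1 had -0.91 ± 0.32 (SE; unadjusted p = 0.0206), and -0.47 without T1D mouse 1. Fstl1 had -1.30 ± 0.54 (SE; unadjusted p = 0.0403), and -0.48 without T1D mouse 1. T1D mouse 1, whose omission moved both, had the highest share of 6 of the 16 marker lists, namely osteoblast, tendon and fibroblast, macrophage, osteoclast, chondrocyte and adipocyte. All 7 tested antagonists and modulators had log2 fold changes below 0, from -1.30 to -0.19, with an unadjusted p under 0.05 for Bmp1 and Fstl1 alone. Of all tested genes, 55.3% were above 0 (43.8% with library size in place of TMM) and 3.33% had an unadjusted p under 0.05.

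Gdf10 (gene ID 14560), also called Bmp3b, was at 5.33, 4.72 and 3.48 CPM in NGT, 4.40, 8.51 and 7.40 CPM in T1D and 2.93, 5.22 and 3.39 CPM in Lira mice. T1D mouse 1 lay within the Lira range, and the Lira against T1D log2 fold change was -0.82 ± 0.36 (SE; unadjusted p = 0.0487). Skil (gene ID 20482), which encodes the Smad co-repressor SnoN, was at 19.9, 17.4 and 16.9 CPM in NGT, 27.7, 24.7 and 15.9 CPM in T1D and 15.8, 11.1 and 18.4 CPM in Lira mice. Its log2 fold change was -0.59 ± 0.26 (SE; unadjusted p = 0.0475), with T1D mouse 3 inside the Lira range. Smad7 in Lira mice was between the other groups' means, at a log2 fold change of -0.19 ± 0.21 against T1D (SE; unadjusted p = 0.378). None of the 11 receptors or 4 latent TGF-beta binding proteins had an unadjusted p under 0.05.

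In Lira against NGT, which shares mice with both comparisons above, Smad7 was higher in every Lira mouse than in every NGT mouse. It was the sole gene of 48 (2.08%) with an unadjusted p under 0.05, against 0.781% of all tested genes, and the sole gene without overlap, against 4.27%. Its log2 fold change was 0.48 ± 0.21 (SE; unadjusted p = 0.0484). No gene was called by edgeR (lowest adjusted p = 0.999) or DESeq2, nor were any of all tested genes by edgeR (0.0%). The median log2 fold change was -0.03 over the 48 genes and 0.04 over all tested genes, with 22 of 48 above 0 against 55.5%. Smad3 in Lira against NGT mice had a log2 fold change of -0.45 ± 0.25 (SE; unadjusted p = 0.103).

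Between mice, the 48 genes varied somewhat more than the rest, with a median coefficient of variation within groups of 27.1% against 23.1% over all tested genes. Ltbp2, a microfibril-associated protein, varied most at 109%, ahead of the activin A subunit Inhba at 90.7%, Tgfb1 at 79.7% and Id2 at 60.3%. T1D mouse 1 was the highest library for 14 of the 48 genes (29.2%), against 20.7% of all tested genes. NGT mouse 1 was highest for 8 of the 48 (16.7%), against 4.11% of all tested genes, and Lira mouse 1 for 8, against 9.92%. Tgfb1 was at 36.9, 9.44 and 13.5 CPM in NGT, 54.1, 12.7 and 26.0 CPM in T1D and 22.8, 9.73 and 74.7 CPM in Lira mice. The 3 highest Tgfb1 libraries, Lira mouse 3, T1D mouse 1 and NGT mouse 1, were also the 3 with the lowest skeletal muscle marker shares, of 10.3 to 13.3% of counts. The part of tissue makeup in this was not tested.

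**Figure D5:**
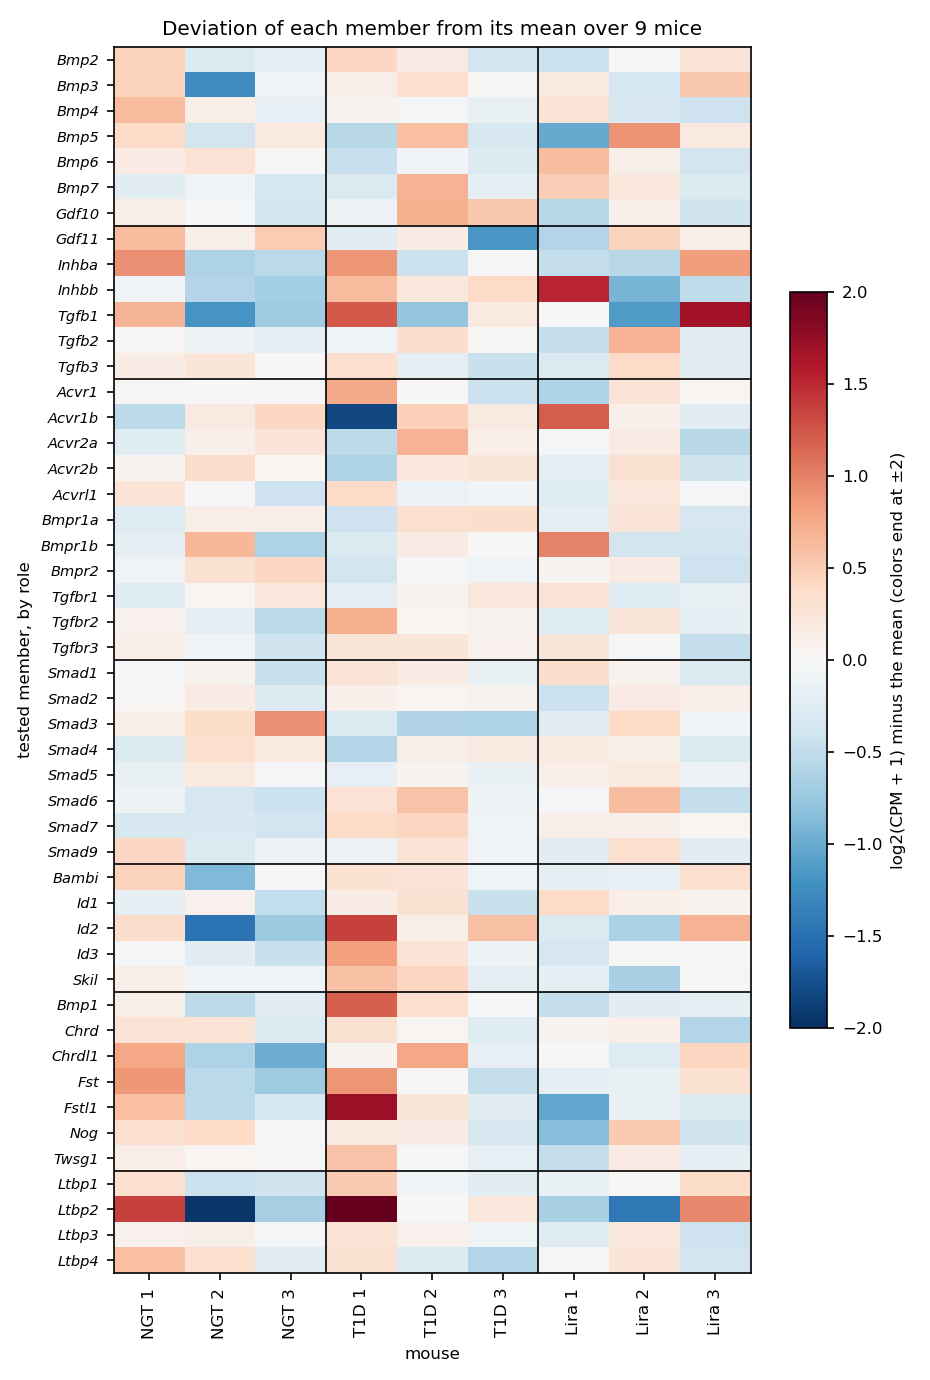
Deviation of log2(CPM + 1) of each of the 48 tested genes from its own mean over the 9 mice, ordered from top to bottom as BMP ligands, TGF-beta and activin ligands, receptors, Smads, Id and feedback genes, antagonists and modulators, and latent TGF-beta binding proteins. T1D mouse 1 holds the highest value for 14 genes, and the Smad7 row is below 0 in all 3 NGT mice.

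Without the 3 libraries of lowest muscle marker share, the Smad3 log2 fold change was -1.31 in T1D against NGT and 0.75 in Lira against T1D, that of Smad7 was 0.59 in T1D against NGT, and that of Bmp1 was 0.53 and -0.52. Without NGT mouse 2 and Lira mouse 2, whose osteoblast markers were lowest, Smad3 was at -1.09 and 0.36, Smad7 at 0.68 and Bmp1 at 0.65 and -0.95. In both cases 0 of 48 genes were called. The median log2 fold change of the 48 genes in Lira against T1D was -0.001 without the 3 libraries of lowest muscle marker share, in place of -0.11, and -0.20 without NGT mouse 2 and Lira mouse 2. In Lira against NGT it was 0.17 and -0.17, in place of -0.03, so its sign turned in the former case. The shift of the 48 genes below 0 in Lira against T1D was not seen without those 3 libraries, where the median of all tested genes was -0.007. Between mice of a group, the median log2 level of the 48 genes had an SD of 0.22, larger than these moves, whose cause was not tested.

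A further 62 genes of the pathway, such as other ligands, processing enzymes and Smad regulators, were listed beside the 51. Of these, 60 were in the table and 48 were tested, and edgeR called 0 in each comparison. With an unadjusted p under 0.05 there were 0 in T1D against NGT, 2 in Lira against T1D (4.17%, near the 3.33% of all tested genes) and 0 in Lira against NGT. Gdf1 (gene ID 14559), a ligand whose transcript also carries Cers1 so that its reads may be shared, was at 1.40, 3.87 and 2.93 CPM in NGT, 3.91, 5.89 and 4.13 CPM in T1D and 2.07, 1.87 and 2.35 CPM in Lira mice. Nbl1 (gene ID 17965), a DAN-family BMP antagonist, was at 59.2, 22.3 and 28.1 CPM in NGT, 161, 59.8 and 29.8 CPM in T1D and 22.0, 34.0 and 30.4 CPM in Lira mice. Log2 fold changes in Lira against T1D were -1.14 ± 0.41 for Gdf1 (SE; unadjusted p = 0.0209) and -1.54 ± 0.60 for Nbl1 (SE; unadjusted p = 0.0318), with an edgeR adjusted p of 0.978 for each. Gdf1 was lower in every Lira mouse than in every T1D mouse. For Nbl1 the groups overlapped, with T1D mouse 3 inside the Lira range, and T1D mouse 1 was again the highest library.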

How the data were processed

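Whole-tibia RNA was sequenced from 9 mice (3 per group), 1 library each. After alignment of clean reads to the mouse reference, the authors deposited expected counts per gene, not normalized, of which 30.2% were not whole (tolerance 0.005), and FPKM values scaled by the authors for gene length and library total. The submitters' processing notes name mm9; the aligner, its version and the strand setting are not given in the sources used here. The labels name the samples as separate, and p-values measure the spread between these mice. Gene coordinates in mm9 are not given; promoter coordinates are those of the RefSeq table (GRCm38.p6).

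Expected counts were rounded, and a gene was tested if 3 or more libraries held 10 or more counts of it (13960 of 18272 genes). Counts were tested in R 4.3.3 with edgeR 4.0.16 (TMM, glmQLFit and glmQLFTest, 3 group means over all 9 libraries). A gene was called at a Benjamini-Hochberg adjusted p under 0.05 over all tested genes and a fold above 2. CPM used TMM-scaled totals, on which 3 counts equal 0.163 to 0.238 CPM; the standard error of a log2 fold change came from the F statistic. The biological coefficient of variation was 0.433. On simulated counts for T1D against NGT, with 200 of 13960 genes changed, 128 were recovered at 4-fold with 8 false calls and 197 at 16-fold with 7 false calls.

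The 51 genes and all lists were chosen with earlier results of these data known. Genes given in every mouse were those with an unadjusted p under 0.05 in any comparison, the 3 with the highest mean FPKM, the highest in each role, and those under the filter; others are named as examples. For the pairing check, mice were compared as deviations from their group mean in log2(CPM + 1). Same-numbered T1D and NGT mice correlated at 0.599, 0.641 and 0.284, all over 0.1, and were taken as pairs on these values, since the labels do not say what a number marks. Unlike-numbered T1D and NGT mice correlated at -0.707 to 0.213. Lira and T1D mice (-0.286, 0.608 and 0.246) and Lira and NGT mice (-0.291, 0.711 and -0.122) were not taken as pairs, and unlike-numbered mice there reached 0.397 and 0.778, so mice without a shared number can correlate as closely. Alternatives used DESeq2 1.42.0, limma 3.58.1 on log2(FPKM + 1) or log2(FPKM + 0.1), library size in place of TMM, TMM without muscle and erythroid markers, other filters, the robust option, only the groups compared, a replicate block, no fold threshold and each mouse left out. 2 sets without the libraries that stood apart by tissue markers were added after seeing the data.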

Additional observations from a re-analysis of the deposited data

How the results depend on the processing

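The number of genes called was 0 of 48 in each comparison under all 23 alternatives, with a lowest adjusted p of 0.232 in T1D against NGT, 0.745 in Lira against T1D and 0.882 in Lira against NGT. In T1D against NGT, DESeq2 gave Smad3, Smad7, Bmp1 and Id3 no adjusted p, so its 0 does not cover them. Leaving out each mouse gave 0 calls throughout. The count at an unadjusted p under 0.05 moved: in T1D against NGT from 4 to 7 without NGT mouse 1 (7.32% of all tested genes, in place of 3.95%), to 2 without NGT mouse 2 (1.61%) or NGT mouse 3 (1.81%), and to 2 with library size in place of TMM (3.40%) or with limma on FPKM (3.12 and 3.14%). In Lira against T1D it fell from 5 to between 2 and 4 when 1 mouse was left out (1.83 to 5.36% of all tested genes, in place of 3.33%), to 1 with library size in place of TMM (2.51%) or with limma on FPKM (2.04 and 2.14%), to 2 with only both groups compared in the fit (2.13%), and to 3 with 10 counts required in all 9 libraries (4.06%). In Lira against NGT it was 0 to 4 when 1 mouse was left out, with 4 without Lira mouse 2 (3.20% of all tested genes, in place of 0.781%) and 2 without NGT mouse 1 (2.22%), and 0 without the filter (0.90%), with limma (0.80 and 0.81%) or with only both groups compared (0.82%). The median log2 fold change of the 48 genes was 0.06 to 0.28 in T1D against NGT, -0.20 to -0.06 in Lira against T1D and -0.09 to 0.12 in Lira against NGT when each mouse was left out. In T1D against NGT it was lowest without T1D mouse 2 and highest without T1D mouse 3. Without the 3 libraries of lowest muscle marker share it was 0.21, -0.001 and 0.17 in the same order, and without NGT mouse 2 and Lira mouse 2 it was 0.12, -0.20 and -0.17. With the replicate number as a block, the unadjusted count in T1D against NGT was 4 over all 9 libraries, as without the pairing, and 14 in the fit of both groups, which also drops the Lira mice, and no call changed. For Lira against T1D, whose numbers were not taken as pairs, the block gave 2 over all 9 libraries (3.63% of all tested genes) and 0 in the fit of both groups (1.85%), and for Lira against NGT it gave 0 in either fit (1.15 and 0.681%). Smad3 in T1D against NGT kept an unadjusted p under 0.05 in 22 of 22 alternatives and Smad7 in 21 of 22. Bmp1 did so in 13 and Id3 in 9, and in Lira against T1D Bmp1 did in 16, Gdf10 in 11, Smad3 and Fstl1 in 9 each and Skil in 6. Smad7 in Lira against NGT did so in 5. The causes of these changes were not tested. These genes were picked for an unadjusted p under 0.05 on the same mice that the alternatives reuse, so the tallies are not separate tests. With 3 mice a group, the simulation recovered 128 of 200 genes at 4-fold, so smaller differences could go uncalled. Its counts had a spread set by mean level alone and no differences in tissue makeup between mice. Among all tested genes, log2 fold changes of up to 7.51 in T1D against NGT were not called, so larger differences could go uncalled too.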
